A study of Laccaria bicolor with 18 samples.

Results

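A set of 112 gene models of the ectomycorrhizal mushroom *Laccaria bicolor* was chosen for being detected in late caps and in no other part or stage of the basidiocarp. The members were selected on the reads measured in all 6 groups. A group's mean over its 3 libraries was taken from the deposited counts, and a member had a mean above 5 reads in late caps, at most 5 reads in each of the other 5 groups and a late cap mean RPKM (reads scaled for transcript length and for the library's mapped reads) under 10. The members were 112 of 23130 gene models (0.484%), and the RPKM bound removed none, since their late cap mean RPKM lay between 0.0314 and 1.76. The groups were late, early and medium caps and early, medium and late stipes of strain S238N, each with 3 libraries, and all came from basidiocarps fruiting under inoculated Douglas fir seedlings in a nursery. The labels call the libraries biological replicates and do not say whether caps and stipes with the same number came from the same basidiocarp. The stages carry no age in days, and how many basidiocarps went into a library is not given. In such bulk RNA, fewer cells of a type and less RNA per cell cannot be told apart.

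The cap of an agaric carries the gills, whose surface layer, the hymenium, bears the basidia. In the basidia nuclei fuse, meiosis takes place and basidiospores are formed, and spores ripen and are shed as the cap ages. The stipe raises the cap above the ground.

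The choice of the members used the reads of all 6 groups, so the higher reads in late caps are a description here and carry no test. The level of the members was low. Their late cap mean had a median of 6.67 reads and reached from 5.33 to 42.0 reads. Only 19 members had a mean above 10 reads and 4 had a mean above 20, whereas 75 had a mean of at most 8. In CPM (reads relative to library sizes scaled by edgeR's TMM method), the late cap means lay between 0.0693 and 0.665, with a median of 0.105. At the lower edge, 16 members shared the lowest late cap sum of 16 reads. Gene model 619270 was such a case, with 12, 4 and 0 reads in late caps 1, 2 and 3, as were 323404 with 10, 5 and 1 reads and 601404 with 10, 1 and 5 reads. Just outside, 17 gene models had a late cap mean of exactly 5 reads, among them 634583 (2, 5 and 8 reads), 617134 (3, 7 and 5 reads) and 575337 (4, 5 and 6 reads). Members and non-members at this edge differed by a single read over 3 libraries. At the other bound, 10 members had a mean of exactly 5 reads in another group. Gene model 579970, for instance, had 21, 8 and 11 reads in late caps and 2, 7 and 6 reads in medium stipes.

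Library depth moved with membership. Late cap 1 was the deepest library, with 90888294 reads counted, and late caps 2 and 3 had 57953078 and 52229065 reads. The 15 other libraries had between 38976106 and 70771764 reads. A bound of 5 reads therefore stood for 0.0574 CPM in late cap 1, for 0.0879 and 0.0977 CPM in late caps 2 and 3, and for 0.0711 to 0.123 CPM elsewhere. More than 5 reads were counted for 95 members in late cap 1, for 75 in late cap 2 and for 57 in late cap 3, an order that follows depth. In the other libraries this number lay between 1 and 16. Corrected for depth, the late caps were close to each other. The summed level of the 112 members was 14.3, 16.2 and 14.6 CPM in late caps 1, 2 and 3, so that late cap 1 was the lowest of the 3. It was between 3.70 and 4.35 CPM in early caps, 4.12 and 5.03 CPM in medium caps, 3.91 and 4.36 CPM for early stipes, 3.59 and 4.48 CPM for medium stipes and 5.01 and 5.48 CPM for late stipes. Late stipes lay above early and medium stipes without overlap in this sum. Late stipes 1 and 2, with 45117160 and 39337295 reads, were among the shallowest libraries, where the bound of 5 reads allows a higher level. They had 5.48 and 5.01 CPM, but late stipe 3, with 60472856 reads, had 5.46 CPM. Medium cap 3, the shallowest library with 38976106 reads, had 4.12 CPM. The part of depth in the difference between the stipes was not tested. Late caps 2 and 3 were nearly alike over all gene models, with a biological coefficient of variation of 4.05%. It was 9.30% and 9.73% between late cap 1 and each of them. Pairs within the other 5 groups lay between 16.2% and 39.3%, apart from medium stipes 1 and 2 at 4.16%. All 3 late caps were thus closer to each other than most libraries of another group. Whether they came from separate basidiocarps is not given, and whether their SDs show the spread between basidiocarps was not tested.

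**Figure D1:**
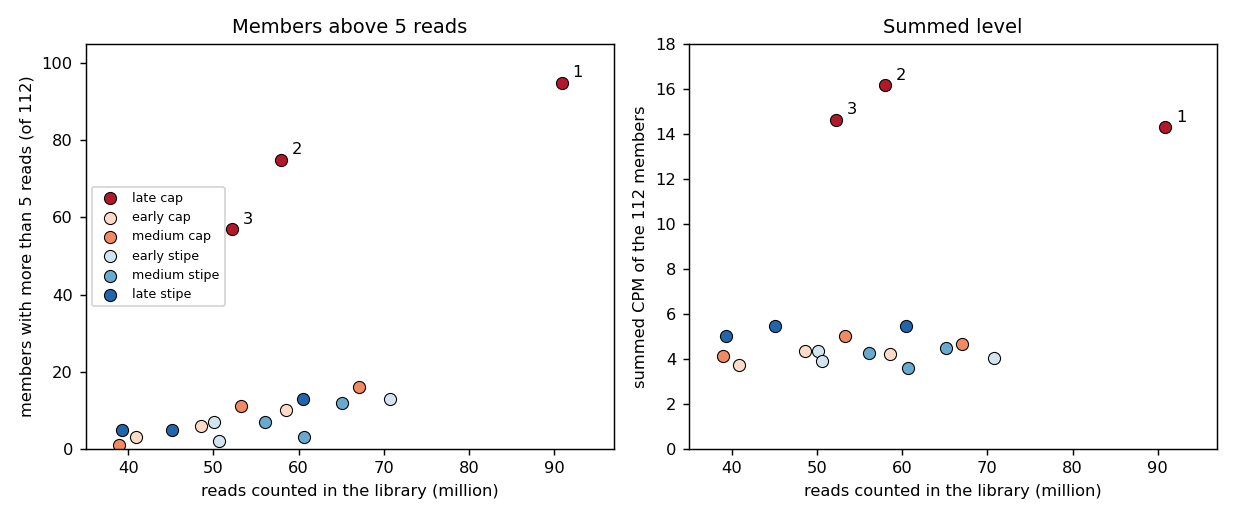
Each point is a library, coloured by group, placed by its reads counted on the horizontal axis; the numbers mark late caps 1, 2 and 3. On the left, the number of the 112 members with more than 5 reads was 95, 75 and 57 in late caps 1, 2 and 3 and at most 16 elsewhere; on the right, their summed level was 14.3, 16.2 and 14.6 CPM in late caps 1, 2 and 3 and at most 5.48 CPM elsewhere.

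When all libraries were scaled to the median total of 54676654.5 reads before the rule was applied, 70 gene models were detected only in late caps, and 66 of them were among the 112. Of the 46 members that left, 35 no longer reached a late cap mean above 5 reads and 12 were above 5 reads in another group. When scaled to the lowest total, 62 gene models met the rule, of which 33 were among the 112. Late stipes moved the other way. They had 59 gene models of their own by reads as deposited, but 98 at the median total and 71 at the lowest. The lead of late caps over late stipes in the number of gene models detected in a single group was thus present with reads as deposited and absent at both scaled totals. Without late cap 1, 82 gene models met the rule, 74 of them among the 112, and with late caps 2 and 3 averaged into a single library 130 did, 103 of them among the 112.

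**Figure D2:**
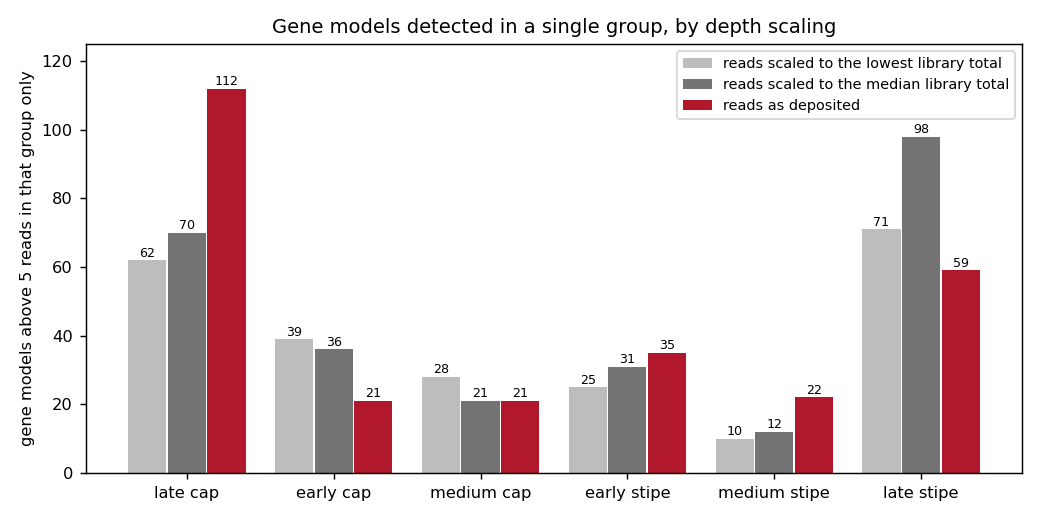
Bars give the number of gene models with a mean above 5 reads in the named group and at most 5 in the other 5, after scaling reads to the lowest library total (light grey), to the median total (dark grey) or as deposited (red). Late caps had 62, 70 and 112 such gene models and late stipes 71, 98 and 59.

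Detection "only" in late caps held for the group means and not for single libraries. Each of the 112 members had at least 1 read outside late caps, with reads in a median of 12 of the 15 other libraries, and 85 had reads in 10 or more of them. More than 5 reads in at least 1 other library were found for 61 members. Within late caps, 35 members had more than 5 reads in all 3 libraries, 45 in 2 and 32 in 1. Each late cap lay above each of the 15 other libraries in CPM for 26 members (28 in reads), where 6.21% of the 19903 gene models with a read did so. Since the rule used this contrast, nothing is read from that difference.

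The reads of a group were summed and divided by its library sizes to set late caps against the next highest group. The late cap level was a median of 1.82 times that of the next highest group, where the median over the 16688 gene models detected in late caps was 0.683. For 42 members it was above 2 and for 11 above 4, whereas for 9 members it was under 1, so that their level per read sequenced was not highest in late caps. Members with a ratio under 1 included 619270, at 0.968 (95% counting interval 0.448 to 2.10), and 323404, at 0.890 (0.407 to 1.97). Such intervals, here and below, were exact (Clopper-Pearson) and cover counting error only. They take no account of the choice of members on these same reads. A ratio and its interval are therefore a description and carry no test of a difference. The next highest group in mean CPM was the late stipe for 44 members, the medium cap for 24, the medium stipe for 20, the early stipe for 14 and the early cap for 10.

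**Figure D3:**
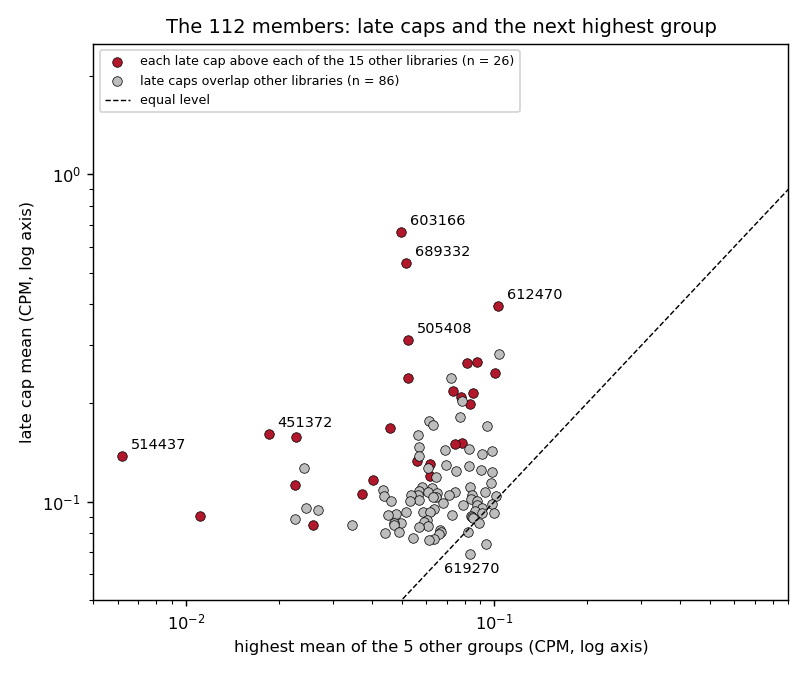
Each point is a member, with its late cap mean on the vertical axis and the highest mean of the 5 other groups on the horizontal axis (CPM, both log axes); the dashed line marks equal levels. For the 26 members in red each late cap lay above each other library, and most of the grey points lie below 0.2 CPM and close to the line.

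The highest member was gene model 603166, the only member with an annotated function in the study's supplementary annotation at hand, where it is given as a gluconate transport-inducing protein of the Gti1/Pac2 family. Proteins of this family carry the WOPR DNA-binding domain. In *Schizosaccharomyces pombe*, Gti1 is needed to induce gluconate uptake and Pac2 acts on the onset of sexual development, and in *Candida albicans* the relative Wor1 controls the switch between white and opaque cells. The study also names 603166 among the genes most regulated in its late ectomycorrhiza samples with poplar. At early time points it reports high regulation in ectomycorrhiza only. Those samples were not used here, and the rule compared late caps only with other basidiocarp groups. Gene model 603166 had 47, 45 and 34 reads in late caps 1, 2 and 3. Medium stipes had 2, 2 and 5 reads, medium caps 4, 0 and 0, early caps 2, 0 and 0, late stipes 1, 0 and 0, and early stipes 0, 0 and 0. Late caps were thus higher than all other libraries and similar to each other, at 0.665 ± 0.126 CPM (SD, n = 3) and an RPKM of 0.711. The next highest group was the medium stipe with 0.0496 ± 0.0247 CPM (SD, n = 3), and late caps stood at 12.7 times its level (95% counting interval 6.49 to 28.4). A library listed at 0 could, by counting error alone, still have an expectation of up to 3 reads.

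Other Gti1/Pac2 gene models did not share this pattern. The annotation at hand lists 3 more, 580240, 313875 and 643828, which were chosen for description after the values of 603166 had been seen. All 3 were lower in early caps than in early stipes and lower in medium caps than in medium stipes, with log2 fold changes between -1.63 and -4.34 and adjusted p between 1.23e-05 and 0.000277 (quasi-likelihood test of edgeR, adjusted by Benjamini-Hochberg). Gene model 643828 had 77.4 ± 4.78 CPM in late caps and 477.7 ± 76.8 CPM in late stipes (SD, n = 3 each). Gene model 313875 had 10.2 ± 0.148 CPM in late caps and 34.7 ± 7.88 CPM in late stipes (SD, n = 3 each). Gene model 580240 was instead higher in late caps, at 2.66 ± 0.216 CPM against 0.767 ± 0.202 CPM in late stipes (SD, n = 3 each; log2 fold change 1.78, adjusted p = 0.00354 from the same edgeR test). Its late stipes, however, lay far below early stipes, at 38.9 ± 22.8 CPM (SD, n = 3; log2 fold change -5.66 for late against early stipes, adjusted p = 7.59e-07 from the same edgeR test), while its late caps did not differ detectably from early caps (-0.80, adjusted p = 0.134 from the same edgeR test). None of the 3 was called between late and early caps or between late and medium caps.

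**Figure D4:**
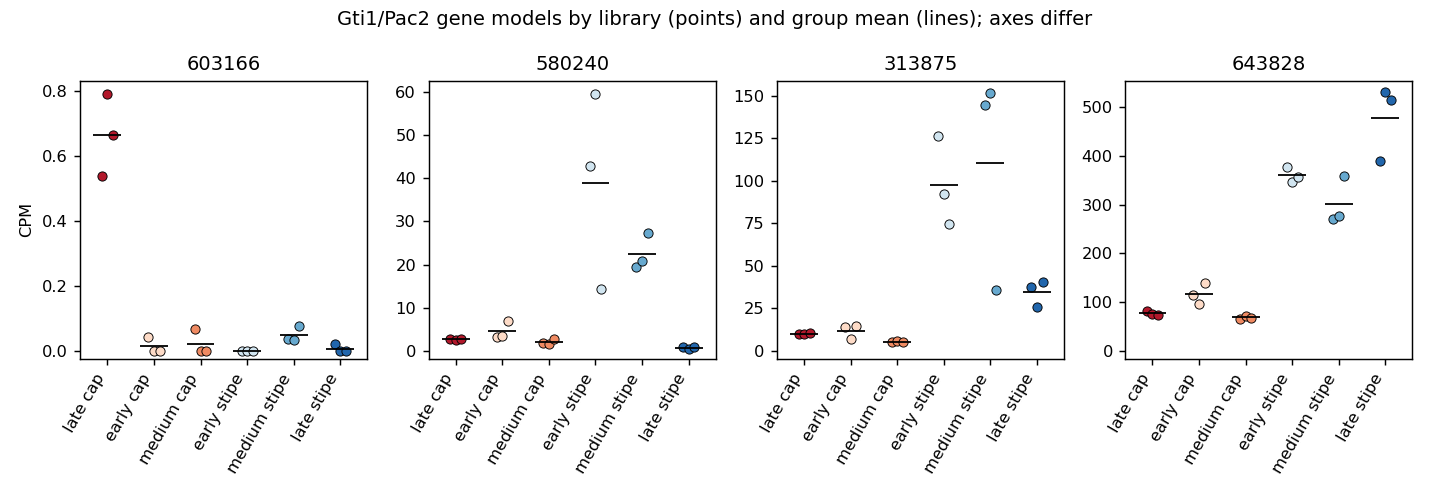
Points are libraries and lines are group means (CPM, n = 3 per group) of the 4 Gti1/Pac2 gene models; each panel has its own linear axis. Gene model 603166 was highest in late caps, at 0.665 CPM, whereas stipes had the highest means of the others, early ones for 580240, medium ones for 313875 and late ones for 643828.

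Gene model 689332 had 41, 31 and 30 reads in late caps, at 0.534 ± 0.0588 CPM (SD, n = 3). Early stipes had 0, 4 and 5 reads, medium stipes 3, 2 and 0, early caps 0, 2 and 3, late stipes 0, 0 and 4, and medium caps 0, 0 and 0. No other library came near the late caps, and the next highest group, the early stipe, had 0.0515 ± 0.0491 CPM (SD, n = 3; ratio of late caps to early stipes between 5.07 and 22.5 by counting error). With a transcript of 296 bases it had the highest late cap RPKM of all members, 1.76. Neither the study's annotation at hand nor RefSeq gives it a function.

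Gene model 612470 was less restricted to late caps. It had 30, 29 and 17 reads there, but 7, 2 and 6 reads in late stipes, 1, 8 and 3 in medium caps and between 0 and 5 in each of the remaining libraries. Its late caps, at 0.396 ± 0.0993 CPM (SD, n = 3), stood at 3.71 times (2.11 to 6.95) the level of late stipes. Scaled to the median total it was no member, since its late stipe mean was then above 5 reads.

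For gene model 505408, late cap 1 stood apart. It had 43 reads there against 15 and 9 in late caps 2 and 3, and late cap 1 held 52.9% of the late cap CPM. It had 3, 0 and 5 reads in late stipes, 2, 0 and 2 in medium stipes, 0, 0 and 1 in early stipes, 2, 0 and 0 in early caps and none in medium caps. The late caps did not overlap the other libraries in CPM, and their level was 6.13 times (2.94 to 14.8) that of late stipes. Gene model 335476 was uneven in the same way, with 36, 9 and 14 reads in late caps, and its libraries overlapped, as early cap 3 had 10 reads and late stipe 2 had 8.

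The next 7 members by late cap CPM were 325602, 503006, 612043, 552713, 616954, 621806 and 572220, none with an annotated function in the sources at hand. Their late caps had between 9 and 24 reads, at means from 0.215 to 0.267 CPM, and between 2.49 and 4.71 times the level of the next highest group. Gene model 552713 had the highest ratio of these, with 16, 18 and 11 reads in late caps, at most 4 reads in each other library and none in early caps. Gene model 612043 had the most even late caps, with 21, 14 and 13 reads (0.247 ± 0.00662 CPM, SD, n = 3), but 7 reads also in medium cap 2 and early stipe 2.

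**Figure D5:**
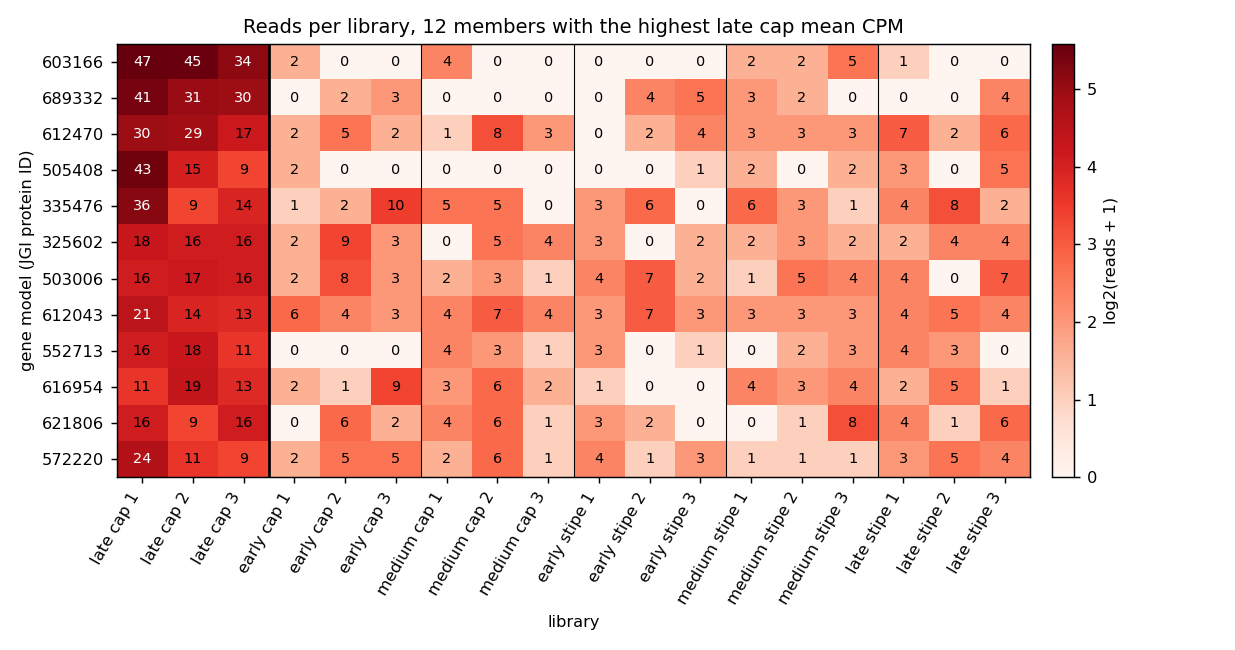
Reads in each of the 18 libraries (columns, late caps at the left of the thick line) for the 12 members with the highest late cap mean CPM (rows); colour is log2(reads + 1) and the digits are the reads. The late cap columns hold 9 to 47 reads, and the other columns 0 to 10.

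No member had more than 5 reads in each late cap and none elsewhere. To show the members nearest to this, the 7 with at most 10 reads in the 15 other libraries together were singled out after their values had been seen. Gene model 514437, with 10, 7 and 9 reads in late caps, had a single read outside them, in late stipe 3. Its level in late caps was 107 times that over the 15 libraries, with a counting interval of 17.6 to 4399 that shows how little a single read fixes. Gene model 451372, of only 162 bases, had 11, 8 and 11 reads in late caps, 3 in late stipe 3, 2 in medium stipe 3, 1 in early stipe 1 and none in early and medium caps (20.6 times, 8.45 to 60.6). Gene model 473394 had 7, 9 and 5 reads in late caps, 2, 2 and 0 in early stipes and 1 in medium cap 2, and no read in late stipes. Gene model 612612 had 6, 13 and 9 reads in late caps and 10 elsewhere, none of them in early caps and early stipes. The other 3 had 16 reads each in late caps. Gene model 574738 had 3, 9 and 4 reads in late caps and 5 elsewhere. Gene model 689402 had 6, 5 and 5 reads in late caps and was otherwise seen in medium caps, with 5, 3 and 0 reads. Gene model 584507 had 4, 8 and 4 reads in late caps and 8 elsewhere, none of them in early caps and late stipes. After scaling to the lowest total, 514437, 451372 and 612612 still met the rule and the other 4 did not. Of the 11 members with more than 4 times the level of the next highest group, 2 rested on late caps 1 and 2, with a single read each in late cap 3. These were 612429, with 13, 12 and 1 reads in late caps and 0, 0 and 3 reads in early caps, and 608805, with 8, 10 and 1 reads in late caps and 1, 1 and 2 reads in early caps. Their late caps overlapped the other libraries, whereas those of the other 9 did not.

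The late caps differed in how they shared the reads of a member. The late cap with the highest CPM was late cap 1 for 33 members, late cap 2 for 42 and late cap 3 for 37, whereas by reads late cap 1 was the highest for 73. In 13 members a single late cap held over 60% of the late cap CPM. The most uneven were 595380, with 6, 20 and 3 reads in late caps 1, 2 and 3 (73.4% in late cap 2), 300317 with 14, 3 and 1 reads (69.0% in late cap 1) and 482397 with 18, 2 and 3 reads (68.8% in late cap 1). Besides 612043, the most even were 637208 and 605648, with 8, 5 and 5 reads each, but their ratios to the next highest group, late stipes for 637208 (counting interval 0.442 to 2.05) and medium caps for 605648 (0.471 to 2.18), included equal levels.

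A test of expression was possible for few members. Only 7 of the 112 passed edgeR's filter on low counts, against 16485 of the 19903 gene models with a read, and the filter is met through the libraries in which a gene model is high, here mainly late caps. These were 603166, 689332, 612470, 335476, 325602, 612043 and 574004. A gene model was called when its log2 fold change exceeded 1 in either direction with an adjusted p under 0.05 in the same edgeR test. Higher in late caps than in early caps were 4 of the 7 (9.27% of all gene models tested), higher than in medium caps 7 of the 7 (9.17%) and higher than in late stipes 6 of the 7 (14.8%). The rule used these 3 contrasts and the filter kept members mainly for their late cap reads, so nothing is read from these counts. Without the filter all 112 could be fitted, and 33 were called higher than in early caps (8.23% of 19903), 31 higher than in medium caps (8.3%) and 37 higher than in late stipes (12.5%). The rule fixed the direction of these contrasts too, so nothing is read from the unfiltered counts either.

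The rule set no direction between the other groups, but it capped each of them at a mean of 5 reads, which bounds any difference between them, so the counts are a description and nothing about the members is read from them. Among the 7 members tested, 0 were called by edgeR in medium against early caps (2.03% of all gene models tested), early caps against early stipes (5.16%), medium caps against medium stipes (11.5%), late against early stipes (19.3%), late against medium stipes (15.6%) and medium against early stipes (2.48%). At an unadjusted p under 0.05, 1 member passed in medium against early stipes and 0 in each of the other 5 comparisons. This was 603166, with 2, 2 and 5 reads in medium stipes and 0, 0 and 0 in early stipes. It was higher in 3 of 3 libraries, of which medium stipes 1 and 2 were nearly alike. Its adjusted p was 0.117 by edgeR and 0.0475 by DESeq2, which called it and no other member in these 6 comparisons. With 0 to 12 reads per library outside late caps, a difference between those groups was in most cases not detectable at this depth. Without the filter on low counts, 9 of the 112 were called in late against medium stipes (13.2% of all), 7 of them higher in late stipes (5.62% of all) and 2 lower, 3 in late against early stipes (16.2%), 2 in medium caps against medium stipes (9.46%) and 0 in medium against early caps (1.67%), early caps against early stipes (4.31%) and medium against early stipes (2.03%). As examples chosen after their values had been seen, gene model 582140 was among the 7, with 4, 4 and 3 reads in late stipes and 0, 0 and 0 in medium stipes. Gene model 312994 went the other way, with 0, 0 and 0 reads in late stipes against 2, 1 and 5 in medium stipes and 6, 5 and 3 in early stipes.

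The members had short transcripts, a property that the rule on reads did not use directly. The length implied by reads and RPKM had a median of 421.5 bases for the members, with a range of 159 to 3832, and was under 500 bases for 68 of 112 (60.7%). The median was 1024 bases for the 16891 other gene models detected in at least 1 group, of which 19.5% were under 500 bases. Other gene models with late cap means above 5 reads and no higher than that of the highest member were as short, however, with a median of 459 bases and 55.4% under 500 bases (n = 1832), so that short length went with low reads in general. The 59 gene models detected only in late stipes had a median of 657 bases. Of the members' lengths, 90.2% were multiples of 3, as lengths of coding regions without untranslated regions are. No sequences were at hand to check this. The share was 93.0% for the 1832 gene models above, 91.5% for those detected only in late stipes and 75.7% for the 16891. The 1832 were held to the members' range of late cap means but were not matched to them in reads.

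Annotation was scarce. The study's supplementary annotation at hand covers 6705 of the 23130 gene models, and 2 members are in it, 603166 and 529341. Gene model 529341 has no domain there and had 7, 10 and 3 reads in late caps. Gene model 603166 is also among the 764 gene models at hand listed as developmentally regulated, a list the study drew from these libraries and so no independent evidence. The lists for small secreted proteins (243 gene models at hand), the secretome (299), CAZymes (144), proteases (128), lipases (40), transporters (282), transcription factors (104), protein kinases (181), F-box (48), WD40 (34), BTB/POZ (13) and NACHT proteins (25), cytochromes P450 (26), hydrophobins (5), transposon words (26) and meiosis, recombination or spores (33) held 0 members. The lists were drawn by words in the annotation at hand, which is incomplete and covers a part of the gene models. This count therefore does not show that members of these classes are missing from the 112. Gene model 603166, for instance, is outside the transcription factor list, although its family carries a DNA-binding domain. A RefSeq table of *L. bicolor* (assembly V1.0) matched 32 members by number (28.6%, against 28.4% of all gene models) and gave a name beyond the locus tag to none of them.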

How the data were processed

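RNA was sequenced from caps and stipes at 3 stages, 3 libraries for each of 6 groups. Per the study's methods, reads were quality- and adapter-trimmed by the authors and aligned to v2 reference transcripts of *L. bicolor* in CLC Genomics Workbench 8, and the authors deposited a read count per gene model, without normalization, and an RPKM computed from it. Whether the count is of unique or total reads, and whether strand was used, is not given in the sources used here, so near-identical or overlapping gene models can share reads. Depth was 38976106 to 90888294 reads, and a count of 0 allows up to 3 expected reads.

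The members were found with the rule on deposited counts. Their selection, the lists and most alternatives were chosen with earlier results of these data known. edgeR 4.0.16 (R 4.3.3) kept 16485 gene models by filterByExpr, scaled libraries by TMM and fitted a mean for each group to all 18 libraries. DESeq2 1.42.0, the authors' tool, was an alternative. The fit of gene models that passed the filter was tested on simulated data, which does not cover the fits without the filter. For even depth, reads were multiplied by a fixed factor per library and not drawn. Transcript length was that implied by reads, RPKM and library total. P-values set a difference between groups against the spread between these libraries, and whether the libraries came from separate basidiocarps is not given.

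Gene models named were the 12 members with the highest late cap CPM, annotated members, those nearest the bounds, the most and least even in late caps, and others said to be chosen after their values were seen. Where many tied at a bound, those named had the lowest (members) or highest (non-members) late cap CPM, and for the highest mean in another group the highest late cap CPM. Planned naming by genome neighbours and protein identity was not possible with the references used here. Alternatives were depth scaling, other bounds and ways to combine libraries, DESeq2, RLE and other TMM scaling, other filters, glmTreat, a replicate block, fewer libraries in the fit, nearly alike pairs summed, and each library left out.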

Additional observations from a re-analysis of the deposited data

How the results depend on the processing

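Membership depended on the rule's settings. The number of members, 112, became 70 with reads scaled to the median library total, 62 scaled to the lowest, 35 with more than 5 reads required in each late cap and 51 with at most 5 reads required in each of the 15 other libraries. With a bound of 10 reads in place of 5, 126 gene models met the rule, but only 19 of the 112 were among them, and with a bound of 3 reads 118 did, 44 of them members. With library sizes scaled by TMM, chosen after seeing the data, 76 met the rule. Leaving out a library at a time, the number lay between 82 (without late cap 1) and 138 (without late cap 3).

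Counts of members called changed most with the filter on low counts, since it sets how many are tested. Without it the counts in late caps against early caps, medium caps and late stipes were 33, 31 and 37, and with at least 5 reads in at least 3 libraries 36, 30 and 33, in place of 4, 7 and 6. The test against a log2 fold change of 1 (glmTreat) left 2 in late caps against medium caps and 2 against late stipes, and summing the nearly alike pairs of libraries left 4 against medium caps. With each library left out, these 3 counts lay between 4 and 5, 4 and 7 (4 without medium cap 1 or late cap 3), and 5 and 6. In comparisons without late caps, where 0 were called, the counts without the filter were 2 in medium caps against medium stipes, 3 in late against early stipes and 9 in late against medium stipes, and with at least 5 reads in at least 3 libraries 2, 2 and 7. DESeq2 gave 1 in medium against early stipes. Leaving out libraries gave between 0 and 1 in late against early stipes (1, gene model 612470, without early stipe 3) and 0 in the other 5. Equal replicate numbers gave no sign of paired libraries. Between libraries of the same number, deviations from the group means had correlations from -0.613 to 0.419, and 4 of 18 libraries were nearest to their own number. With 3 libraries per group the deviations within a group depend on each other, so this cannot tell whether libraries were paired. With the replicate number as a block, 4, 6 and 6 members were called in late caps against early caps, medium caps and late stipes, and 0 in the other 6 comparisons, so that 1 call was lost against medium caps and no other count changed. Leaving out a late cap moved the late cap mean CPM of 5 of the 22 members named by rule by over 1.5 times. Without late cap 1 it was 0.0469 in place of 0.100 CPM for 482397, 0.0361 in place of 0.0777 for 300317 and 0.0352 in place of 0.0693 for 619270, and without late cap 2 it was 0.0637 in place of 0.160 for 595380 and 0.0695 in place of 0.105 for 529341. Depth limits most members, as 75 of the 112 had late cap means of at most 8 reads.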
